A study of Equus caballus with 9 samples.

Results

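The set described here holds 34 genes of horse bone marrow stromal cells whose RNA was higher in undifferentiated cultures than in cells taken towards fat and also than in cells taken towards cartilage. They were selected from the 13571 genes with enough counts to test, out of 30371 gene IDs in the files. A gene belonged to the set when its lowest level over the 3 undifferentiated libraries was at least 1.5 times its highest level over the 6 differentiated libraries, with a mean of at least 1 CPM in undifferentiated cells. CPM, the usual unit for counts scaled by library size, was taken after TMM scaling, which removes composition differences between libraries by a trimmed mean of ratios. The set was therefore chosen on these very levels, and the levels relative to undifferentiated cells are a description that carries no test.

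The 9 libraries were made from polyadenylated RNA of equine bone marrow-derived mesenchymal stromal cells (MSC), in 3 groups of 3. The MSC group was kept as the control, the ADM group was differentiated towards adipocytes and the CDM group towards chondrocytes. The labels state no medium, no time in culture and no age, sex or number of horses. Nothing in the labels says whether replicates were separate cultures or animals, so the spread between libraries may be technical.

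Stromal cells of the marrow are grown as adherent, dividing cells and can be driven into several connective tissue fates. Adipocyte formation runs through the transcription factors PPARG and CEBPA, and cartilage formation through SOX9, which activates the genes of cartilage matrix. Cells that commit to either fate usually divide less and lower genes of the proliferating stromal state. The files give Ensembl IDs without gene symbols, and 0 of the 34 members matched the RefSeq gene table at hand. It is thus not known whether any member belongs to that state. No function, position or sequence is given for any of them, and the labelled cell types could not be checked against their markers. In bulk RNA, fewer cells of a type and less RNA per cell cannot be told apart.

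Counts assigned to genes ranged from 17260899 in CDM replicate 2 to 39331930 in ADM replicate 1. The make-up of CDM replicate 2 was unlike the rest, with 56.2% of its counts in its 10 most abundant genes against 12.1% to 29.9% elsewhere and a TMM factor of 0.525 against 0.904 to 1.41. For 15 of the 34 members it held 8 counts or fewer, so its values for these genes are coarse. Without this library the same rule gave 72 genes, which included 33 of the 34.

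A gene rarely met the rule. The 34 members were 0.251% of the genes tested, while 284 genes (2.09%) had every MSC library above all 6 differentiated libraries by any margin. The mirror rule, which asks for genes at least 1.5 times higher in every differentiated library than in every MSC library, gave 29 genes. This near balance depended on scaling and on single libraries. When libraries were scaled by their totals alone the numbers were 73 lower and 6 higher, of which the 73 included 30 of the 34 members. That scaling moved the median log2 difference of all tested genes by -0.20 for ADM minus MSC and by -0.53 for CDM minus MSC, and member values below are relative to TMM scaling. The mirror rule gave 132, 40 and 134 genes without MSC replicates 1, 2 and 3, 51, 83 and 56 without the CDM replicates, and 31 to 33 without an ADM replicate. Just inside the limit lay members with ratios of 1.501 and 1.52, and the nearest genes outside it had ratios of 1.495 and 1.47.

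Summed over the 34 members, the level was 1531, 1448 and 2053 CPM in MSC replicates 1, 2 and 3. It was 425.6, 439.0 and 345.9 CPM in the ADM libraries and 521.2, 451.3 and 454.4 CPM in the CDM libraries. All 6 differentiated sums lay under the MSC sums, as the rule required. It also put both groups of each member under a common ceiling, so nothing is read from how near the ADM and CDM sums were. Members with high levels weigh most in these sums, with MSC means of 437 CPM for ENSECAG00000014446 and 414 CPM for ENSECAG00000015601. Their means went opposite ways between the lineages. ENSECAG00000014446 had 159 CPM in ADM and 106 CPM in CDM, and ENSECAG00000015601 had 48.0 CPM in ADM and 150 CPM in CDM. By its sum, MSC replicate 3 was the highest of its group.

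Members differed widely in how much of the MSC level was left. The mean ADM level was between 0.198% and 54.2% of the member's MSC mean, with a median of 19.9%. In CDM it was between 5.09% and 50.2%, with a median of 24.7%, or 25.2% without CDM replicate 2 and 19.8% without CDM replicate 1. With library totals only, the medians were 17.2% in ADM and 17.5% in CDM. The gap between the ADM and CDM medians thus depended on the libraries and the scaling. Less than 10% of the MSC level remained in ADM for 10 members and in CDM for 2, and both of the latter were also under 10% in ADM. The other 8 of those 10 kept at least 10% in CDM. The median fitted log2 change over the members was -2.32 for ADM against MSC, where it was -0.03 over all genes tested, and -2.02 for CDM against MSC, where it was 0.04 over all genes tested. Both comparisons use the same MSC libraries, and the choice of members fixed the direction.

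**Figure D1:**
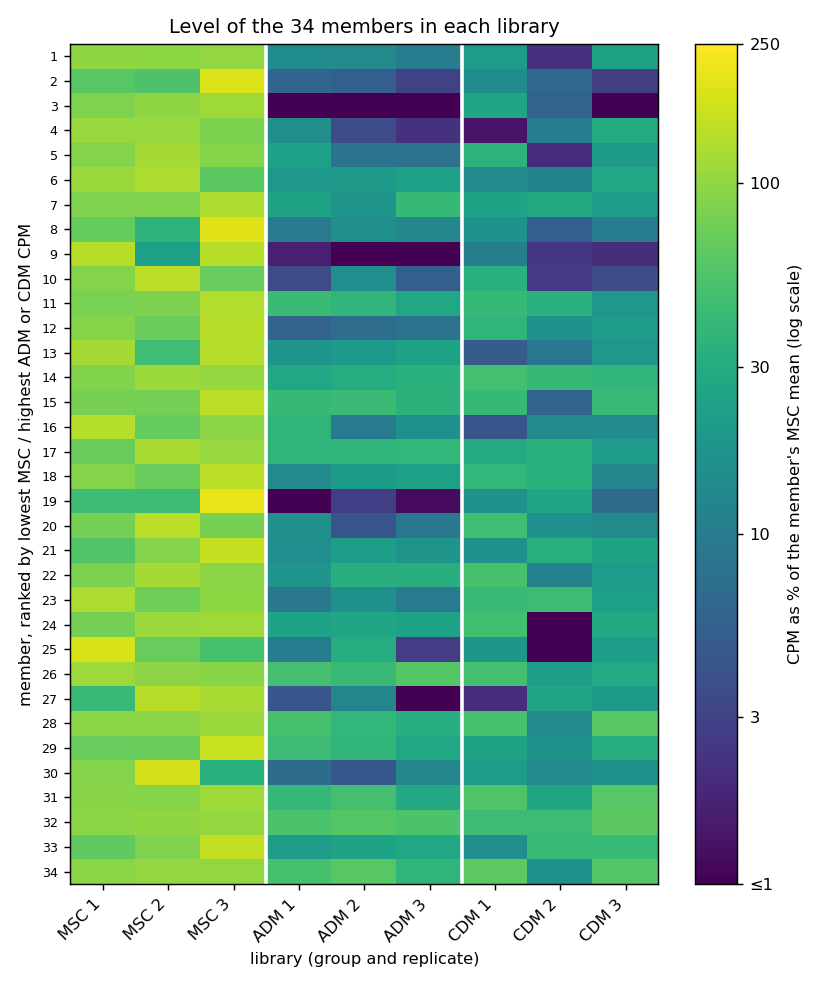
Level of each member in each library as a percentage of that member's MSC mean, on a log colour scale, with members in rows ranked by the ratio that chose them and libraries in columns. The MSC columns hold the brightest cells of each row, the ADM columns are darkest in rows 3, 9 and 19, and the CDM columns hold scattered dark cells that change from row to row, 2 of them CDM replicate 2 values of 0 counts in rows 24 and 25.

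The member with the largest ratio, ENSECAG00000008089, had 5.03, 4.91 and 5.19 CPM in MSC replicates 1, 2 and 3. It had 0.732, 0.673 and 0.527 CPM in the ADM libraries and 1.04, 0.1105 and 1.23 CPM in the CDM libraries. The MSC libraries were within 1.06 times of each other, and the lowest was 3.97 times the highest differentiated library. Its low CDM value was a single count in replicate 2, against 30 and 39 counts in replicates 1 and 3.

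ENSECAG00000021645, with the next largest ratio of 3.72, was less even among the MSC libraries, at 2.02, 1.80 and 6.26 CPM. It was at 0.202, 0.176 and 0.0988 CPM in ADM and 0.485, 0.221 and 0.0950 CPM in CDM. Replicate 3 was thus 3.47 times the lowest MSC library, while ADM and CDM overlapped close to the detection floor. The level left was 4.72% in ADM, from 17 counts in all, and 7.94% in CDM, from 19 counts in all. ENSECAG00000021645 was also among the 2 members with under 10% left in both groups. The other, ENSECAG00000000291, was picked after its values were seen.

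ENSECAG00000000291 had 12.8, 2.09 and 12.9 CPM in the MSC libraries, so that replicate 2 stood well below the others. ADM held 0.151, 0.0878 and 0.0658 CPM and CDM 1.004, 0.221 and 0.190 CPM. Every ADM library lay below every CDM library, and both groups lay below MSC replicate 2. The level left was 1.10% in ADM and 5.09% in CDM.

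Of all 34 members, ENSECAG00000019665 was the closest to complete loss in ADM. Its MSC levels were 46.4, 53.0 and 61.0 CPM, from 1607 to 2115 counts per library. The ADM libraries held 2, 8 and 1 counts, or 0.0504, 0.234 and 0.0329 CPM, so that 0.198% of the MSC level was left. In CDM the level was 14.1, 3.20 and 0.443 CPM, a range of 31.8-fold among replicates. Replicate 1 kept the most and replicate 3 came near the ADM values without overlapping them.

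ENSECAG00000032720, likewise picked after its values were seen, had the same kind of loss in ADM from an uneven MSC level. MSC replicates were at 3.84, 3.85 and 17.7 CPM, ADM at 0, 0.234 and 0.0988 CPM, and CDM at 1.42, 2.21 and 0.570 CPM. The groups did not overlap, and MSC replicate 3 was far above the other MSC libraries. The count of 0 in ADM replicate 1 stood beside 8 and 3 counts in the other ADM libraries.

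**Figure D2:**
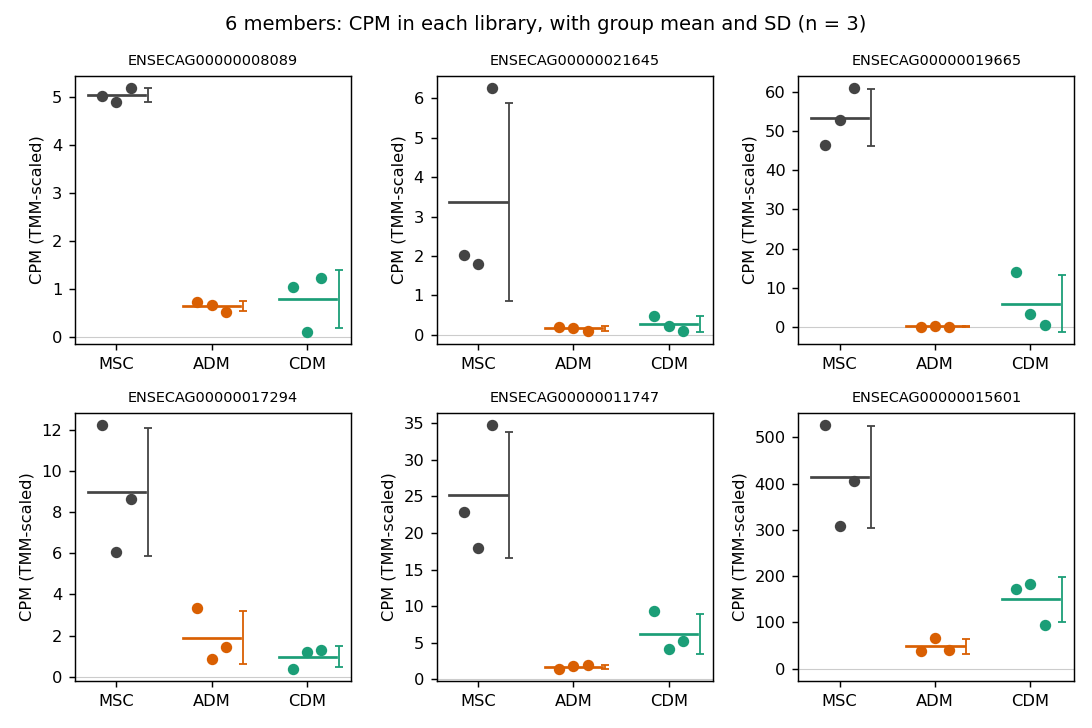
CPM of 6 members in each library, on a separate linear axis per gene, with points for replicates 1 to 3 from left to right, a horizontal line for the group mean and a bar for ± 1 SD (n = 3). ENSECAG00000019665 is near 0 in the 3 ADM libraries and spread from 0.443 to 14.1 CPM in CDM, while ENSECAG00000015601 keeps 93.6 to 184 CPM in CDM.

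ENSECAG00000015601 and ENSECAG00000011747 were both singled out after their values were seen. Both had more ADM counts than the members described above, though ENSECAG00000011747 had 58, 62 and 61. Not every member with high counts had ADM below CDM. ENSECAG00000014446, with the highest MSC mean, had means of 159 CPM in ADM and 106 CPM in CDM, with overlapping libraries. ENSECAG00000015601 was at 527, 307 and 407 CPM in MSC, 37.9, 66.6 and 39.6 CPM in ADM, and 173, 184 and 93.6 CPM in CDM. Its means were 414 ± 110 CPM in MSC, 48.0 ± 16.1 CPM in ADM and 150 ± 49.2 CPM in CDM (SD, n = 3 each). The groups did not overlap and were ordered MSC, CDM, ADM, with 36.3% of the MSC level left in CDM and 11.6% in ADM. CPM does not take gene length into account, so such levels say nothing of how genes rank against each other.

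ENSECAG00000011747 followed the same order. Its levels were 22.9, 18.0 and 34.8 CPM in MSC, 1.46, 1.81 and 2.01 CPM in ADM, and 9.32, 4.09 and 5.22 CPM in CDM. The ADM libraries were close together, at 1.76 ± 0.276 CPM (SD, n = 3), and CDM kept 24.6% of the MSC level against 6.99% in ADM.

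At the other end of the set, ENSECAG00000023553 and ENSECAG00000011296 kept at least 40% of the MSC level in both groups, which no other member did. They were picked for this after their values were seen. Other members came close to that limit. ENSECAG00000043179 kept 39.97% in ADM and 41.2% in CDM, and ENSECAG00000023941 kept 39.0% in ADM and 46.4% in CDM. ENSECAG00000023553 had 32.7, 34.2 and 35.3 CPM in MSC, 18.0, 19.7 and 17.8 CPM in ADM, and 14.96, 15.1 and 21.2 CPM in CDM. Its change was small, to 54.2% in ADM and 50.2% in CDM, but its MSC libraries lay within 1.08 times of each other. ENSECAG00000011296 had 42.1, 44.3 and 44.6 CPM in MSC, 21.8, 26.0 and 16.3 CPM in ADM, and 28.02, 6.96 and 24.7 CPM in CDM. With the smallest ratio in the set, it remained a member in only 3 of 11 settings that changed the scaling or left out 1 library, and 28 of the 34 members remained in all 11.

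Evenness among MSC libraries varied from member to member. The highest MSC library was under 1.5 times the lowest for 13 members and over 3 times the lowest for 7. The median coefficient of variation of the members was 33.9% in MSC, 25.03% in ADM and 54.8% in CDM, against 32.5%, 18.1% and 53.5% over the genes tested. In CDM, 8 members had a highest library over 10 times the lowest or a library at 0. The same held for 3 members in ADM. The MSC and CDM spreads of the set were near those of all genes. The rule puts no limit above on the MSC libraries and none below on the others.

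The rule rests on the lowest MSC library and the highest differentiated library of each gene, so which libraries these were is a description of how members were chosen. The lowest MSC library was replicate 1 for 15 members, replicate 2 for 13 and replicate 3 for 6. These were 44.1%, 38.2% and 17.6% of members, against 31.9%, 30.9% and 37.2% of all genes tested. The highest differentiated library was CDM replicate 1 for 14 members, and each of the other 5 had that place for 2 to 6. CDM replicate 1 had it for 41.2% of members and 15.5% of all genes tested, and CDM replicate 2 for 14.7% and 33.5%. Without MSC replicates 1, 2 and 3, the rule gave 103, 72 and 162 genes. It gave 62, 72 and 55 genes without the CDM replicates and 38, 37 and 34 without the ADM replicates. Leaving out a library removes a condition of the rule, but why the number differed between the libraries left out was not tested.

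The rule ranked MSC against the rest and set no order between ADM and CDM, beyond a ceiling common to both. The comparison of ADM with CDM asks whether the retained level differed between the lineages. In the edgeR quasi-likelihood fit of all 9 libraries, 0 of the 34 members passed an adjusted p of 0.05, as did 0 of all 13571 genes (0%). At an unadjusted p under 0.05 there were 6 members (17.6%), close to the 19% of all genes tested. All 6 were lower in ADM, where 11.7% of all genes tested were. When only the ADM and CDM libraries were fitted, 4 members had such a p, as did 2169 of the 13039 genes tested in that fit. Of the 34 members, 31 pass the filter on low counts without the MSC libraries. The other 3 were tested only because MSC was high, and ENSECAG00000000291 was the 1 of them among the 6. In DESeq2, 4 members passed (11.8%), against 7.1% of genes tested that were called in either direction. All 4 were lower in ADM, where 4.36% of genes tested were called lower. They were ENSECAG00000019665, ENSECAG00000011747, ENSECAG00000015601 and ENSECAG00000032720.

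The member with the smallest p, ENSECAG00000019665, differed by a log2 fold change of -5.76 (SE 1.22, 95% interval -8.51 to -3.01, edgeR adjusted p = 0.151). The difference stayed negative without each library in turn, from -6.99 to -3.98. For ENSECAG00000011747 the log2 fold change was -1.82 (SE 0.43, edgeR adjusted p = 0.178), and for ENSECAG00000015601 it was -1.64 (SE 0.41, edgeR adjusted p = 0.185). ENSECAG00000032720 had -3.60 (SE 1.13), and ENSECAG00000000291, which passes the filter only through MSC, had -2.21 (SE 0.92). The remaining member at an unadjusted p under 0.05 was ENSECAG00000011334, with 10.9, 2.90 and 6.19 CPM in ADM and 31.4, 11.3 and 9.44 CPM in CDM. Its ADM replicate 1 lay above CDM replicate 3, so these groups overlapped. Its log2 fold change was -1.38 (SE 0.60). Without CDM replicate 1 it was -0.66, and that of ENSECAG00000000291 was -0.97. None of these differences passed the edgeR threshold.

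In the opposite direction the smallest p belonged to ENSECAG00000017294, at 3.35, 0.878 and 1.45 CPM in ADM and 0.381, 1.21 and 1.30 CPM in CDM. MSC was at 12.3, 6.07 and 8.66 CPM, and ADM and CDM overlapped. The log2 fold change was 0.99 (SE 0.66, 95% interval -0.49 to 2.46, edgeR adjusted p = 0.422). It was 0.30 without ADM replicate 1 and 0.55 without CDM replicate 1. Neither direction can be given for this member beyond the spread between libraries.

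Counted by libraries rather than by test, 7 members (20.6%) had every ADM library below every CDM library, where 11.1% of all genes tested did. For 1 member (2.94%), against 15.7% of all genes tested, every ADM library lay above every CDM library. That member, ENSECAG00000024499, had 19.8, 20.4 and 20.9 CPM in ADM and 15.5, 18.2 and 11.3 CPM in CDM, a narrow gap. The first count was 3 when libraries were scaled by totals alone and 11 without CDM replicate 2. The second was 0 with the size factors of DESeq2 and 5 without CDM replicate 3. Shares over all genes were not counted in these settings, so the changes cannot be read as particular to the members. The mean level was lower in ADM than in CDM for 20 of the 34 members, a count not made over all genes. The median log2 fold change was -0.31 over the members and -0.07 over all genes tested. These counts and this median include the 3 members tested only because MSC was high. ENSECAG00000000291, 1 of the 3, was among the 7 with every ADM library below every CDM library.

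**Figure D3:**
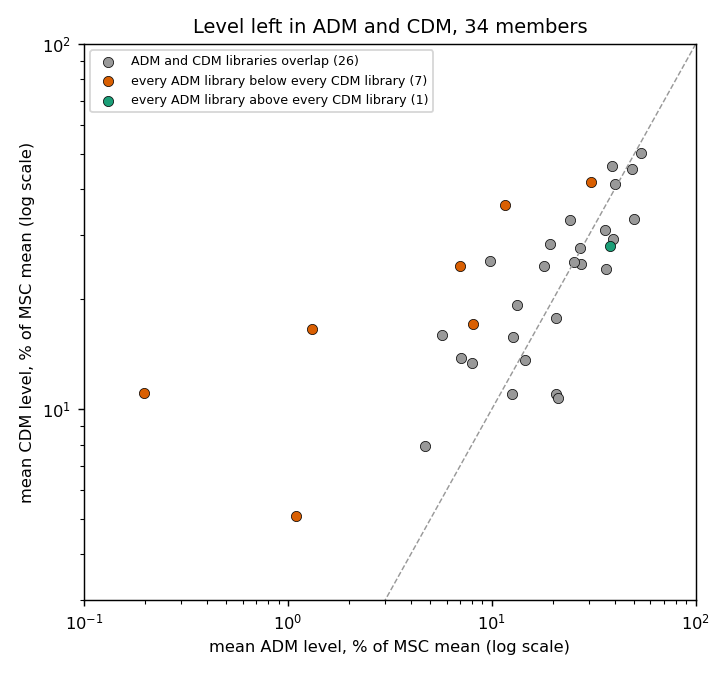
Mean level left in ADM (horizontal) and in CDM (vertical) as a percentage of the MSC mean, both on log axes, with a point per member and a dashed line where both are equal. The 10 members with under 10% left in ADM all lie above the line, where the CDM mean was higher. Picking them by a low ADM level favours that side. ADM and CDM libraries overlapped for some of them, among them ENSECAG00000021645 and ENSECAG00000011334. The farthest from the line is ENSECAG00000019665, at 0.198% in ADM and 11.1% in CDM.

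Intervals were wide for many members. The 95% interval of ADM minus CDM lay within a 2-fold difference in either direction for 1 member, ENSECAG00000023553 (-0.50 to 0.72 on the log2 scale). It spanned more than 4 log2 units for 7 members, of which 4 were among the 28 with an unadjusted p of 0.05 or more. Most members therefore could not be called alike or different between the lineages at this spread.

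**Figure D4:**
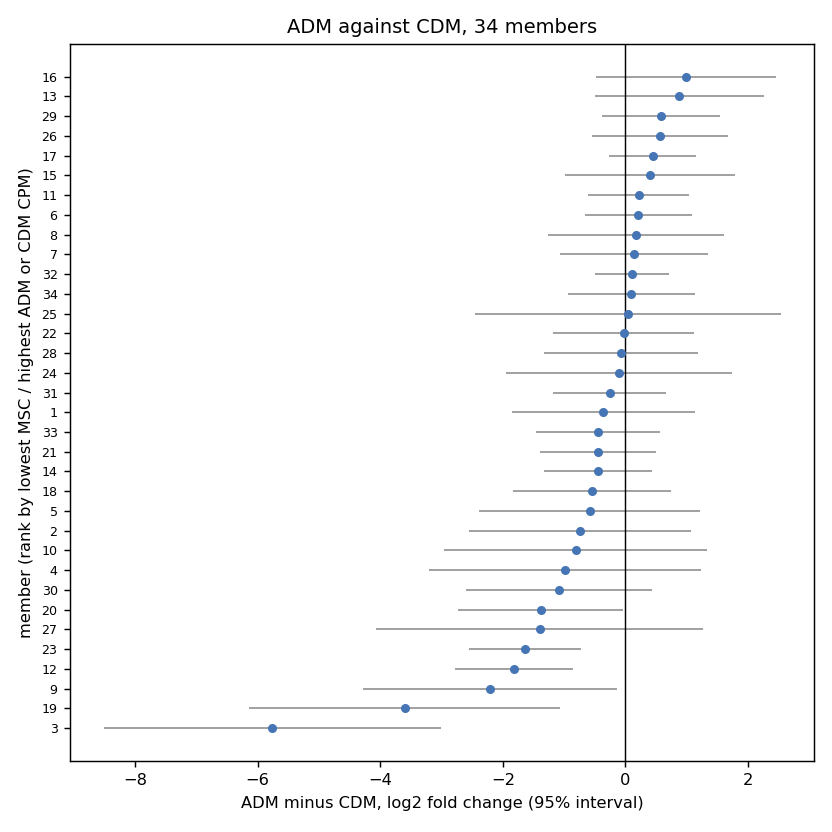
Fitted log2 fold change of ADM against CDM for each of the 34 members, with an approximate 95% interval derived from the edgeR test statistic. Members are ordered by size and labelled by rank in the ratio that chose them. The 6 points whose intervals lie wholly left of 0 are, by construction, the members at an unadjusted edgeR p under 0.05. Rank 3, at -5.76, is the farthest.

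In the comparisons that the rule used, calls are given as a description only. For ADM against MSC, edgeR called 1 member, ENSECAG00000011747, lower in ADM as were 0.0147% of all genes tested. For CDM against MSC, it called 0 members and 0 genes (0%), while 32 members were lower at an unadjusted p under 0.05, as were 4.91% of all genes. DESeq2 called 28 members lower for ADM against MSC (2.38% of all genes tested) and 16 for CDM against MSC (0.332% of all genes tested). The edgeR count for ADM against MSC was 11 without CDM replicate 2 and 4 without CDM replicate 1. It was 0 without any 1 of the MSC or ADM libraries. Calls over all genes were not counted in those fits.

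By the likeness measure used here, the Pearson correlation of log2 CPM over the 9 libraries, the genes closest to ENSECAG00000008089 were ENSECAG00000010476 (0.985), ENSECAG00000043179 (0.977) and ENSECAG00000018823 (0.968). These points share the separation of MSC from the rest. Of the 3 genes, ENSECAG00000043179 was a member. ENSECAG00000010476 had 32.6, 38.6 and 35.1 CPM in MSC, 19.1, 21.0 and 16.7 CPM in ADM, and 22.1, 12.8 and 22.6 CPM in CDM, so it also lay higher in MSC but by less than the rule asked.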

How the data were processed

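The authors deposited raw counts of reads per gene, in whole numbers and without normalization, for each of the 9 libraries. Per the submitters' processing notes, the build was equCab3 and the tools included HTSeq 1.99.2 and STAR 2.7.5c. Neither a strand setting nor an annotation release is given in the sources used here, so reads of overlapping, antisense or near-identical genes may be misassigned. The 5 summary lines, with 24.4% to 36.4% of counted reads, were left out. In R 4.3.3, edgeR 4.0.16 filtered genes by group (filterByExpr), scaled by TMM and fitted all 9 libraries with a term per group (quasi-likelihood, two-sided, Benjamini-Hochberg over all genes tested). DESeq2 1.42.0 was an alternative. An exact test of 3 libraries against 3 cannot give a p below 0.1, so none was used for single values. The fit was run on simulated counts with planted ADM against CDM changes, and the rule on constant values with planted members. The outcome is not given here. The run on constant values does not show how the rule behaves with 3 variable libraries per group. Within-group pairs of libraries differed beyond sampling noise, with a chi-square per degree of freedom of at least 69.2.

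The members, the lists and the rules were chosen with earlier results of these data known. The 24 gene lists could not be matched to the files' IDs and were not used. Without symbols, the rule for named genes took the 2 members of largest ratio and the member with the smallest p of ADM against CDM in each direction. The other IDs were chosen after their values were seen. Alternatives were another scaling, no filter on low counts, other limits of the rule, DESeq2, a fit of 2 groups, a replicate block and leaving out each library.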

Additional observations from a re-analysis of the deposited data

Results flagged for a closer look

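3 kinds of read that HTSeq gave to no gene, and that no comparison used, exceeded their highest MSC share in a CDM library. The share without an annotated feature was 24.4% for CDM replicate 2 and 23.3% for CDM replicate 3, where MSC libraries had between 17.7% and 22.1%. CDM replicate 2 also had an ambiguous share of 4.47%, where the highest MSC share was 1.74%, and a share with several alignments of 7.49%, where the highest MSC share was 6.72%. The part of these shares in the members' low counts in CDM replicate 2 was not tested.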

How the results depend on the processing

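The number of genes meeting the rule, 34, became 73 with library totals only, 69 with a margin of 25% in place of 50% and 10 with a margin of 100%, and was 34 to 162 without 1 library. It was 33 with the size factors of DESeq2, 35 without the filter on low counts and 26 with a mean MSC level of at least 5 CPM. Members with every ADM library below every CDM library numbered 3 with library totals only and 7 to 11 without 1 library. Members with the reverse order numbered 0 with the size factors of DESeq2 and 1 to 5 without 1 library. For either order, shares over all genes were not counted in these settings. Called members for ADM against CDM were 4 in DESeq2 and 0 without any 1 library. Over all genes, that comparison gave 964 calls in DESeq2, 1 without the filter on low counts, 0 to 1 without 1 library and 0 otherwise. Called members for ADM against MSC were 28 in DESeq2, 4 without the filter on low counts, 13 with only the 2 groups fitted and 0 to 11 without 1 library. For CDM against MSC they were 16 in DESeq2 and 0 without any 1 library. Over all genes tested, DESeq2 called 2.38% lower in ADM than in MSC and 0.332% lower in CDM than in MSC. Outside the main fit and DESeq2, calls over all genes against MSC were not counted. Why these counts moved between settings was not tested. Of the 9 members whose ADM minus CDM difference is reported or that the naming rule took, 2 changed sign under an alternative: ENSECAG00000008089 gave 0.0438 without CDM replicate 3 and ENSECAG00000021645 0.14 without CDM replicate 1. Over these members' leave-one-out fits, ENSECAG00000008089 ranged from -0.86 to 0.0438 and ENSECAG00000021645 from -1.19 to 0.14.

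Libraries of the same replicate number were not more alike than others. Over all tested genes, deviations from the group means correlated at -0.31 to 0.01 between same-numbered libraries of different groups. Other pairs were at -0.12 to 0.37, highest for MSC replicate 1 with CDM replicate 3 (0.37) and MSC replicate 3 with CDM replicate 1 (0.25). Deviations sum to 0 within a group and the labels state no pairing, so these values cannot show whether libraries share a horse or batch. The replicate block left 0 called members for ADM against MSC and 0 in the other comparisons. Genes at an unadjusted p under 0.05 for ADM against CDM numbered 1621 with the block and 2583 without it. Low depth limits the members with few counts, above all in CDM replicate 2.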
